A study of Homo sapiens with 8 samples.

Results

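Capped transcription starts listed for only 1 of the states, proliferating or replicatively senescent, of human lung fibroblasts lay in 4 genes of the collagen matrix: COL8A1, COL4A1, LOXL2 and FBLN1. The members are 10 sites of 1249 in 2 deposited lists, chosen because the middle of the 150-base site lay within 1 of the 4 genes or within 1 kb upstream of it. The lists are named for starts of senescent and not proliferating cells (849 sites) and for starts of proliferating and not senescent cells (400 sites), called senescent-only and proliferating-only below. These names do not mean that the other state had no reads at a site. Since the 4 genes were chosen for holding listed sites, the number, fold and reads of their sites are a description and carry no test.

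The cells were IMR90, an established human lung fibroblast line, grown at 3% oxygen. Proliferating cells were taken at population doubling 20 (1 PRO-seq library), 23 and 26 (3 PRO-cap libraries), and senescent cells, brought to growth arrest by serial passage alone, at population doubling 76 (1 PRO-seq library), 76 and 67 (3 PRO-cap libraries). PRO-cap is a nuclear run-on assay that reads the capped 5′ ends of RNA still being made. Only the 2 lists were analysed here. They hold 1 value per site, so there is no spread between libraries, and fewer transcribing cells cannot be told apart from fewer starts per cell.

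Collagens are secreted as chains that wind into triple helices and then assemble outside the cell. COL8A1 encodes a chain of the short-chain, network-forming type VIII collagen, and COL4A1 a chain of the type IV collagen network of basement membranes. LOXL2 is a copper-dependent amine oxidase of the lysyl oxidase family that oxidises lysines and so begins collagen cross-links, and FBLN1 encodes fibulin-1, a calcium-binding glycoprotein of elastic fibres and basement membranes. Fibroblasts are a main source of this matrix, and senescent fibroblasts are known for altered secretion of matrix proteins and of the enzymes that act on them.

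Of the 10 sites, 9 were senescent-only, with 4 in COL8A1, 4 in LOXL2 and 1 in COL4A1, and 1 in FBLN1 was proliferating-only. Over all 20176 protein-coding genes 2.04% held a senescent-only site, 1.09% a proliferating-only site and 0.268% at least 4 senescent-only sites. Among the 5291 protein-coding genes over 50 kb and up to 200 kb long, the range that holds the 4 members, the shares were 3.04%, 1.81% and 0.34%. These shares are given for scale only, as the genes were picked from the same lists. All coordinates are hg19 and gene models are GENCODE 44 lifted to that build.

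The sequences of the COL8A1 sites are shown because 3 of the 4 had an AP-1 motif in the 200 bases around their middle, the letters TGACTCA or TGAGTCA bound by FOS and JUN family dimers. They are given 5′ to 3′ on the plus strand, the strand of COL8A1, with AP-1 matches on either strand in capitals.
COL8A1 site 1, chr3:99384250-99384399: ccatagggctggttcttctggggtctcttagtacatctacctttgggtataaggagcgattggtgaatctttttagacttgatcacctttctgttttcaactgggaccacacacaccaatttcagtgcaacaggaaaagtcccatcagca
COL8A1 site 2, chr3:99397034-99397183: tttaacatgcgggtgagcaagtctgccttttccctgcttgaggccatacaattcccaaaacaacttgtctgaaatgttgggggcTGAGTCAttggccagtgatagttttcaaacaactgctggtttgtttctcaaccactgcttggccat
COL8A1 sites 3 and 4 as 1 run, chr3:99418730-99419021: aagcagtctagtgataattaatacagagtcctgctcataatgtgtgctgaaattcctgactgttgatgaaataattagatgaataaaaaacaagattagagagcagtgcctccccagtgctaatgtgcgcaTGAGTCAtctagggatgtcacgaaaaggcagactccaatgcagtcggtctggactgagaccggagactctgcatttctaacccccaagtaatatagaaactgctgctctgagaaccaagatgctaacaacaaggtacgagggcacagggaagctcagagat
Site 1 had no match. The letters TGAGTCA stood at 99397118 to 99397124 in site 2, and at 99418861 to 99418867 near the junction of sites 3 and 4. That 1 match lay 59 bases from the middle of site 3 and 83 bases from the middle of site 4, so it is inside site 3 and just outside site 4.

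The COL4A1 and FBLN1 sites are shown as the lone sites of their genes, on the strand of the gene, with CpG dinucleotides in capitals.
COL4A1 site, minus strand, chr13:110844637-110844786: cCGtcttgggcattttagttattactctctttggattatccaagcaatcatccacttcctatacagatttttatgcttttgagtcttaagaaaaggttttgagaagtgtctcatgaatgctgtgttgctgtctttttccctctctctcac
FBLN1 site, plus strand, chr22:45930868-45931017: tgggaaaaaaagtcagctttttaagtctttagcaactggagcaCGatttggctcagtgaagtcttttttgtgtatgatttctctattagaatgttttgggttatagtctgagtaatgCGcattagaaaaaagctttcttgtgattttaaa
The COL4A1 site held 1 CpG and the FBLN1 site 2 in their 150 bases. Neither held an AP-1 motif in the 200 bases around its middle.

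COL8A1 (ENSG00000144810) spans 99357319 to 99518070 of chromosome 3 on the plus strand, 160.8 kb. Its 4 senescent-only sites all lay in the 106.2 kb intron 1 of the canonical transcript, which has 4 exons, and so upstream of all 2232 coding bases. Sites 1, 2, 3 and 4 stood 27.0, 39.8, 61.5 and 61.6 kb downstream of its first annotated base. Sites 3 and 4 overlapped by 8 bases, while 12.8 kb separated the middles of sites 1 and 2, and 21.7 kb those of sites 2 and 3. Site 2 lay in an exon of COL8A1-205, a transcript with no annotated coding sequence. None of the 4 lay within 1 kb of an annotated start of the gene, and the closest, site 4, was 6968 bases from the start of COL8A1-204. Of all senescent-only sites, 8.72% lay within 1 kb of an annotated start of any gene.

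**Figure D1:**
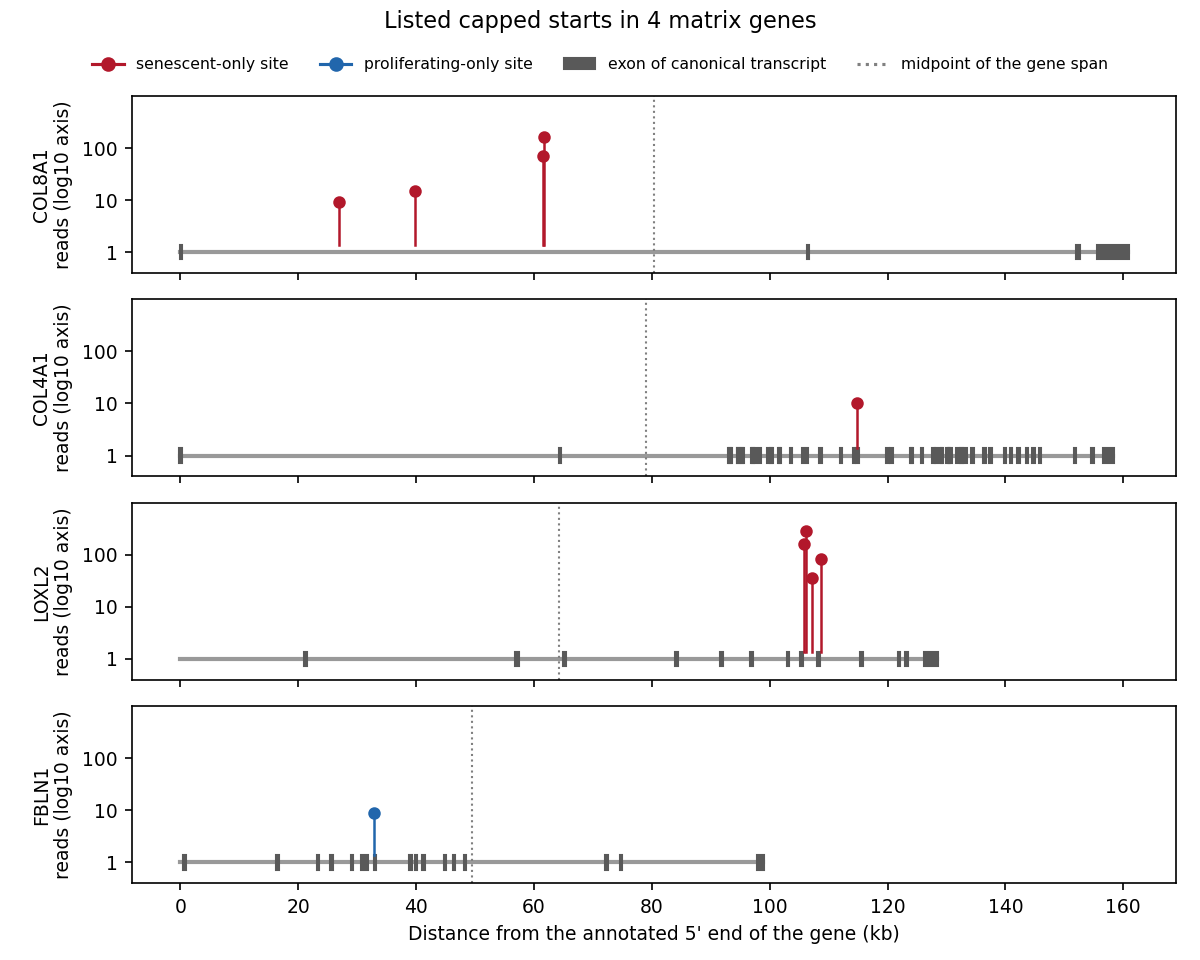
Position and reads of the 10 sites along the 4 genes. The x axis is the distance from the annotated 5′ end of the gene in kb, the y axis the reads of the listed state on a log axis, stems are sites (red senescent-only, blue proliferating-only), grey blocks are canonical exons and the dotted line is the midpoint of the gene span; the COL8A1 and FBLN1 sites stand before it and the COL4A1 and LOXL2 sites after it.

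The only value the lists give for a site is a fold between the states, which is the authors' own. The reads behind it were recovered from that fold. Its numerator and its denominator are each a whole number of reads multiplied by a step (32.8 for senescent and 39.4 for proliferating cells) with 1 added, and each of the 1249 folds had exactly 1 such solution. Counts below carry exact Poisson 95% intervals, which cover counting error only. Ratios are of reads multiplied by these steps, without the added 1, with exact conditional 95% intervals. Where the other state had 0 reads the ratio is a lower bound against a floor of 3 reads at the site; it takes the count of the listed state as it stands, so it has no interval and leaves out the counting error of that count.

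COL8A1 site 1 had 9 reads (4.12 to 17.1) in senescent and 0 in proliferating cells. Site 2 had 15 reads (8.40 to 24.7) in senescent and 1 in proliferating cells. Both were thinly covered, and all but 1 of their reads came from senescent cells. Site 3 had 71 reads (55.5 to 89.6) and 1. Site 4 had the most, with 164 reads (140 to 191) in senescent and 5 (1.62 to 11.7) in proliferating cells. Site 1 alone had no proliferating read, so sites 2 to 4 had reads in both states. The deposited folds run in another order, 296 for site 1, 12.2 for site 2, 57.7 for site 3 and 27.2 for site 4, so the highest fold of the gene belonged to the site with the fewest reads. In scaled reads site 1 was at least 2.50-fold higher in senescent cells, site 2 was 12.5-fold higher (1.92 to 526), site 3 was 59.2-fold higher (10.3 to 2369.8) and site 4 was 27.3-fold higher (11.5 to 85.3). The 3 intervals overlap and site 1 has only a bound, so the counts do not order the sites by ratio. Summed over the gene there were 259 reads in senescent and 7 in proliferating cells, a ratio of 30.8 (14.8 to 77.5), in which a read on the 8 shared bases of sites 3 and 4 may count for both.

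COL4A1 (ENSG00000187498) spans 110801310 to 110959504 of chromosome 13 on the minus strand, 158.2 kb, and its 5′ end overlaps that of COL4A2, the gene of its partner chain, on the other strand. Its site had 10 reads (4.80 to 18.4) in senescent and 0 in proliferating cells. The deposited fold was 329 and the ratio of scaled reads at least 2.78. It lay 114.8 kb from the 5′ end, 72.6% of the way along the gene, in intron 23 of 51, which is 0.545 kb long, and 81 bases from an exon. Of the 5007 coding bases, 3542 (70.7%) lie 3′ of it. COL4A2 held no listed site.

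LOXL2 (ENSG00000134013) spans 23154410 to 23282841 of chromosome 8 on the minus strand, 128.4 kb. Its 4 senescent-only sites stood within 2.94 kb, at 23174100 to 23177034, between 82.4% and 84.6% of gene length. Numbered by coordinate, site 1 lay in intron 9 and sites 2 to 4 in intron 8 of the 13 introns of the canonical transcript. Of the 2322 coding bases, 852 (36.7%) lie 3′ of sites 2 to 4 and 686 (29.5%) 3′ of site 1. The protein carries its scavenger receptor domains towards the N terminus and the catalytic domain towards the C terminus. The lists give + for every site, so whether these starts, or those of the other members, run in the direction of the gene is unknown. Sites 3 and 4, with 65 bases between them, were 773 and 558 bases from the annotated start of LOXL2-208, a retained-intron transcript, and were the only members within 1 kb of an annotated start. Over the lists, 74 of 849 senescent-only sites (8.72%) and 67 of 400 proliferating-only sites (16.75%) lay that near to an annotated start of any gene.

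LOXL2 site 1 had 84 reads (67 to 104) in senescent and 2 in proliferating cells. Site 2 had 36 reads (25.2 to 49.8) and 0. These 2 sites, the more 3′ pair, held fewer reads than the other pair. Site 3 had 287 reads (255 to 322) and 9 (4.12 to 17.1), the most reads of any member in either state. Site 4 had 164 reads (140 to 191) and 2. As in COL8A1, the highest deposited fold of the gene, 1182 at site 2, fell on its least-read site, which had no proliferating read. The highest fold fell on the least-read site in 6 of the 54 genes with at least 4 senescent-only sites, COL8A1 and LOXL2 included. In 52 of the 54 it fell on a site with no proliferating read. The other folds were 34.6, 26.5 and 67.5 for sites 1, 3 and 4. Ratios of scaled reads were 35.0 (9.39 to 294) for site 1, at least 10.0 for site 2, 26.6 (13.8 to 58.7) for site 3 and 68.3 (18.6 to 569) for site 4, and summed over the gene 571 reads stood against 13, a ratio of 36.6 (21.2 to 69.2).

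FBLN1 (ENSG00000077942) spans 45898118 to 45997015 of chromosome 22 on the plus strand, 98.9 kb. Its proliferating-only site had 9 reads (4.12 to 17.1) in proliferating and 1 in senescent cells. The deposited fold was 10.5, and only 4 of the 400 sites of that list were lower, the lowest being 10.04. The ratio of scaled reads was 10.8, with an interval from 1.50 to 473. The site lay 32.8 kb from the 5′ end, 33.2% of the way along, in intron 7 of 16, with 1325 of 2109 coding bases (62.8%) 3′ of it. It was 137 bases from a canonical exon and 1282 bases from the start of FBLN1-218, a retained-intron transcript.

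**Figure D2:**
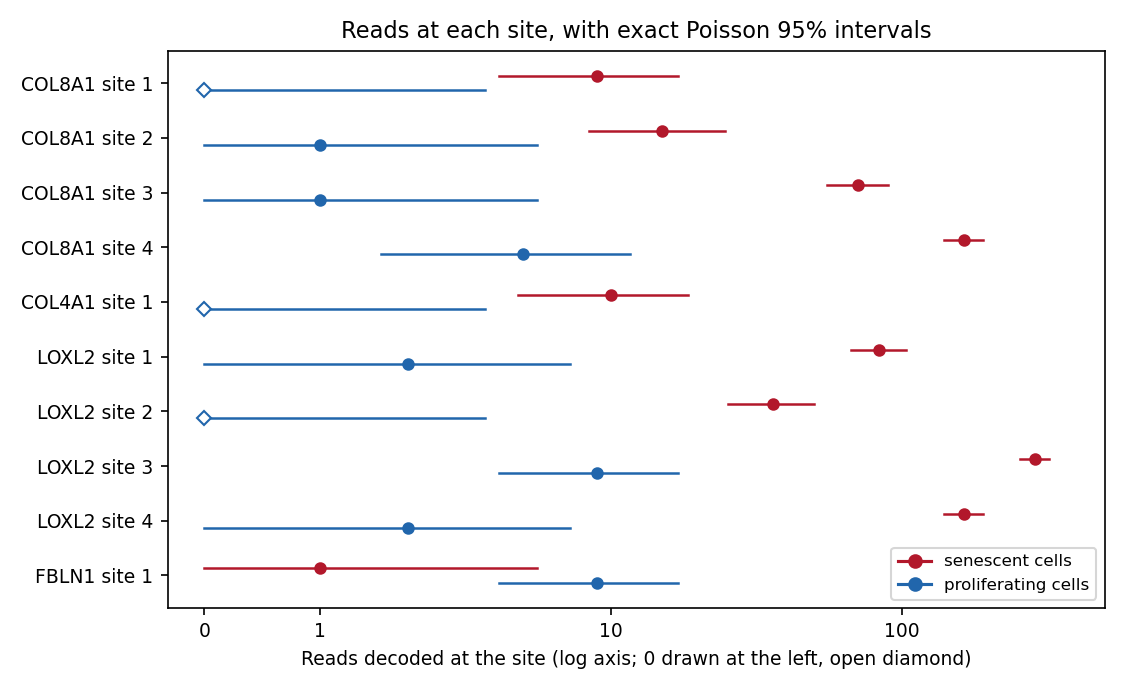
Reads decoded at each of the 10 sites in senescent (red) and proliferating cells (blue), on a log axis with 0 drawn at the left; bars are exact Poisson 95% intervals. Reads are as decoded, not multiplied by the steps, and the sites were listed for a high fold, so the gap between the states is no test; LOXL2 site 3 (287 against 9) stands farthest right and COL8A1 site 1 (9 against 0), COL4A1 (10 against 0) and FBLN1 (9 against 1) rest on the fewest reads.

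All sites are 150 bases wide, so their reads can be set side by side. LOXL2 site 3 came first with 287 senescent reads, followed by COL8A1 site 4 and LOXL2 site 4 with 164 each. LOXL2 site 1 (84) and COL8A1 site 3 (71) came next, with overlapping intervals, and then LOXL2 site 2 (36). COL8A1 site 2 (15), COL4A1 (10) and COL8A1 site 1 (9) were lowest and their intervals overlapped. Within the senescent-only list, whose median was 32 reads, LOXL2 site 3 had more reads than 97.8% of sites and COL8A1 site 1 more than 3.89%. By fold the places differed, with 86.7% of the list below LOXL2 site 2, 48.4% below COL8A1 site 1 and 25.7% below LOXL2 site 3. In the whole list the 470 sites with no proliferating read had a median of 17 reads and a median fold of 559, and the 379 with at least 1 had a median of 64 reads and a median fold of 22.6. A fold with 0 reads below it is set by the added 1, so the members' folds do not rank how much their starts differ.

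**Figure D3:**
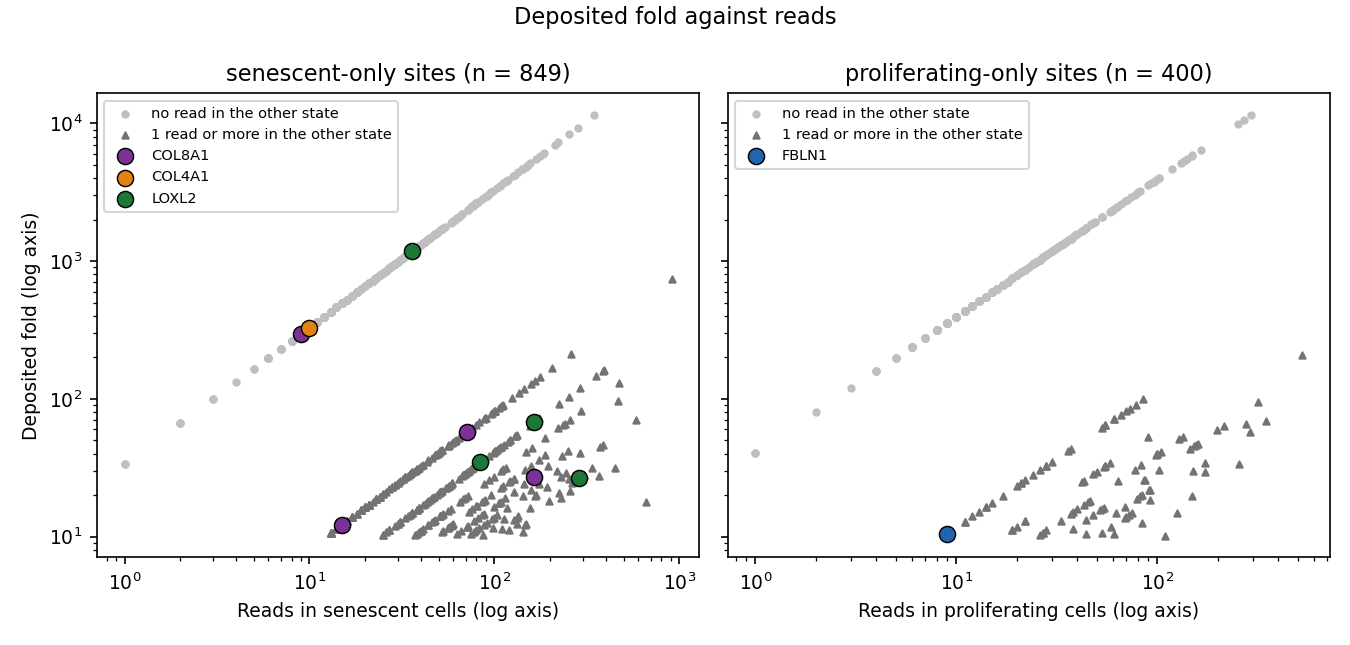
Deposited fold against reads of the listed state for all 849 senescent-only and 400 proliferating-only sites, both axes log; light points stand for 0 reads of the other state, dark triangles at least 1, and coloured points are the members. COL8A1 site 1 (9 reads, fold 296), COL4A1 (10 reads, fold 329) and LOXL2 site 2 (36 reads, fold 1182) lie on the upper line, and LOXL2 site 3 (287 reads, fold 26.5) lies far to the right below it.

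The sites of COL8A1 and FBLN1 stood in the 5′ part of the gene, where the lists held few sites. COL8A1 sites lay at 16.8%, 24.8%, 38.2% and 38.3% of gene length. In the senescent-only list 57 of 743 sites that lay in 1 protein-coding gene (7.67%) stood before the midpoint of that gene, and in the proliferating-only list 35 of 347 (10.1%) did. Of the 54 protein-coding genes with at least 4 senescent-only sites, 45 had every site past the midpoint and 5 had every site before it. The 5 were ARAP1, COL8A1, EVC, FRMD6 and ENSG00000255872, named after their values were seen. ARAP1, EVC and ENSG00000255872 have the same sites as STARD10, CRMP1 and SHB, overlapping genes in which those sites are past the midpoint and which are among the 45, and of the 5 only COL8A1 and FRMD6 shared no site with another of the 54. All coding bases lay 3′ of each COL8A1 site, as they did for 33 of 712 senescent-only sites in the canonical transcript of a coding gene (4.63%), and 64 of those sites (8.99%) were in an intron 1. These shares count sites, which cluster in genes, and no difference was tested. In both lists the number of sites stepped up at the gene midpoint, and whether the authors limited the lists by place in a transcript was not stated.

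The place before the midpoint depends on which transcript is taken. COL8A1 has 9 annotated transcripts, of which COL8A1-205, COL8A1-206 and COL8A1-207 end in what is intron 1 of the canonical form. Site 1 lay 64.3% and site 2 94.8% along COL8A1-205, and sites 3 and 4 lay 94.4% and 94.6% along COL8A1-206. The FBLN1 site was past the midpoint of 7 of the 9 transcripts that hold it. Over the senescent-only list 49 of the 57 sites before the gene midpoint were past the midpoint of at least 1 annotated transcript. In the proliferating-only list, that of the FBLN1 site, 25 of 35 were.

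**Figure D4:**
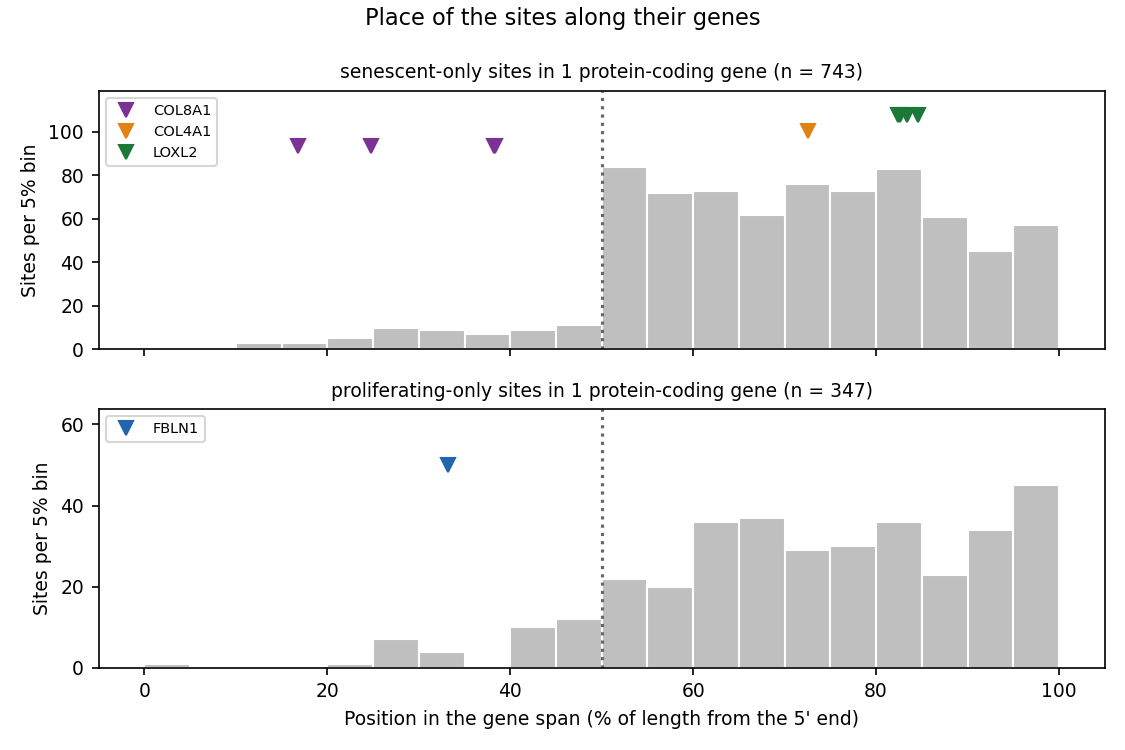
Number of sites per 5% of gene length, from the 5′ end, for sites in 1 protein-coding gene (743 senescent-only above, 347 proliferating-only below); triangles mark the members at their position only, not at a count, and the dotted line is the gene midpoint. The 4 COL8A1 sites, of which 2 coincide, and the FBLN1 site stand left of it.

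Sequence around the members was compared with the rest of their lists in the 200 bases centred on a site. An AP-1 match was present at 3 of 4 COL8A1 sites and 1 of 4 LOXL2 sites, in all 3 distinct matches, against 156 of 849 senescent-only sites (18.4%, Wilson 95% interval 15.9 to 21.1) and 40 of 400 proliferating-only sites (10%, 7.43 to 13.3). The LOXL2 match, 96 bases from the middle of site 3, and the match of COL8A1 site 4 lay outside the 150 bases of those sites. Within the 150 bases only COL8A1 sites 2 and 3 held a match, 2 of 10 members (20%), against 14.1% of senescent-only and 6.5% of proliferating-only sites. By the 200 bases, 33 of the 54 genes with at least 4 senescent-only sites had at least 1 site with a match. COL8A1 was 1 of 7 among the 54 with 3 or more such sites, but 1 match was counted for both of its sites 3 and 4. The others of the 7 held 9 to 12 senescent-only sites each against the 4 of COL8A1, so these counts are not like for like. No member held a TATA box (TATAAA or TATATA on either strand, 0 of 10), which 14.7% of senescent-only and 14% of proliferating-only sites held; with 10 sites this count says little.

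The members varied in base composition. LOXL2 sites had a median GC content of 55% (46.5% to 58%), above the 48.4% of the whole gene and the list median of 45.5% (interquartile range 41% to 50%). COL8A1 sites had a median of 44.5% in a gene of 38.5%. The COL4A1 site had 43% in a gene of 44.9%, and the FBLN1 site 37% in a gene of 53.1%. The CpG observed-to-expected ratio of the 10 sites ran from 0.0952 to 0.512, with list medians of 0.186 and 0.247. The 200 bases at the canonical starts of the same genes had 61.5% GC and a ratio of 0.465 in COL8A1, 66% and 0.882 in LOXL2, 77% and 0.979 in COL4A1 and 81.5% and 1 in FBLN1. Every member site was lower in GC than the start of its own gene, and only COL8A1 site 4 (0.512) was higher in the CpG ratio. The same comparison was not made for the other listed sites, so it marks nothing particular to the members. Over all 1249 listed sites the interquartile range of GC was 41% to 51%, which also lay below these starts.

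Outside the gene spans, COL8A1 had a neighbour in the same list. A senescent-only site at 99581233 to 99581382 of chromosome 3, 63.2 kb past the 3′ end of the gene and inside the overlapping genes CMSS1 and FILIP1L, had 23 senescent and 0 proliferating reads. The nearest listed sites outside COL4A1, LOXL2 and FBLN1 were 993.3, 3184.2 and 5007.4 kb away. LOXL2 sites were packed more closely than those of most genes with at least 4 senescent-only sites, where the span from first to last site had a median of 18.4 kb. A shorter span than the 2.94 kb of LOXL2 was seen in 6 of the 54 genes, and a shorter one than the 34.8 kb of COL8A1 in 34. Their summed senescent reads, 571 and 259, stood above 40 and 20 of the 54. The 54 genes held 4 to 12 senescent-only sites each, in 51 distinct sets, and these ranks were not adjusted for the number of sites.

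The genes most alike over the 2 states were taken as those with the same number of sites of each list and the nearest highest fold on the log2 scale. Of 18 other genes with 4 senescent-only and 0 proliferating-only sites, those nearest to COL8A1 were HIVEP2, with the same fold of 296 and 3 to 75 reads a site, DDAH1 (657) and GABBR2 (756). Nearest to LOXL2 were SHB and ENSG00000255872, overlapping annotations that share the fold of 1379, and LATS2 (887). For COL4A1, 16 of 216 genes with 1 site had the same fold of 329, since it is the fold of 10 reads against 0, and ARHGEF40, CAB39 and ENSG00000282278 come first by symbol. For FBLN1 they were STRA8 (10.04, 109 reads), CADM1 (11.1, 28 reads) and PRSS36 (12.6, 84 reads), each resting on more reads than the 9 of FBLN1.

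The 4 genes were then set among 130 genes of collagen and its surroundings, in lists chosen with earlier results of these data known. Of the 44 collagen genes, 2 held senescent-only sites, COL8A1 and COL4A1, and 1 held a proliferating-only site. The third was COL27A1, a fibrillar collagen, with a site of 79 proliferating and 5 senescent reads (fold 18.8). The remaining 41, the fibrillar COL1A1, COL1A2 and COL3A1 and the type VIII partner COL8A2 among them, held 0. Of 23 genes of collagen crosslinking and processing, LOXL2 and TGM2, a transglutaminase with 1 senescent-only site of 11 reads (fold 362), held sites. LOX, LOXL1, LOXL3 and LOXL4 held 0.

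Of 21 fibulin and elastic fibre genes, FBLN1 and LTBP2 held proliferating-only sites and EFEMP1 and LTBP1 senescent-only sites. EFEMP1, which encodes fibulin-3, held 2 sites of 27 and 60 reads (folds 887 and 48.8), so the 2 fibulin genes with sites lay in opposite lists. The FBLN1 side of this rests on 9 reads against 1, with a ratio interval of 1.50 to 473. LTBP2, a latent TGF-β binding protein family member, held 2 proliferating-only sites of 37 and 11 reads (folds 1458 and 434), and LTBP1 of the same family held 3 senescent-only sites. FBLN2 and FBLN5 held 0. Among 19 basement membrane genes PXDN, a peroxidase that cross-links type IV collagen, held 4 senescent-only sites of 11 to 141 reads (folds 362 to 4628). Among 12 collagen receptors ANTXR1 held 10, ITGA2 2 (172 and 40 reads) and ITGA11 1 (9 reads), all senescent-only. The 11 genes of collagen breakdown and the 12 markers of endothelial, epithelial and immune cells held 0, which in a list of sites says nothing of their level; the fibroblast label could not be checked against levels of expression.

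In all, 10 of the 130 genes (7.69%) held a senescent-only and 3 (2.31%) a proliferating-only site. Without the 4 members, which were picked for their sites, the counts were 7 of 126 (5.56%) and 2 of 126 (1.59%), where all protein-coding genes gave 2.04% and 1.09%. The matrix genes were long, with a median of 75.2 kb. Among the 53 other matrix genes over 50 kb and up to 200 kb, 4 held a senescent-only site. Both other matrix genes with a proliferating-only site, COL27A1 (157 kb) and LTBP2 (114.2 kb), were of that length as well. The background of that length was 3.04% for senescent-only and 1.81% for proliferating-only sites, and no difference was tested. The median number of sites per gene was 0 in the 130 genes and in all protein-coding genes.

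**Figure D5:**
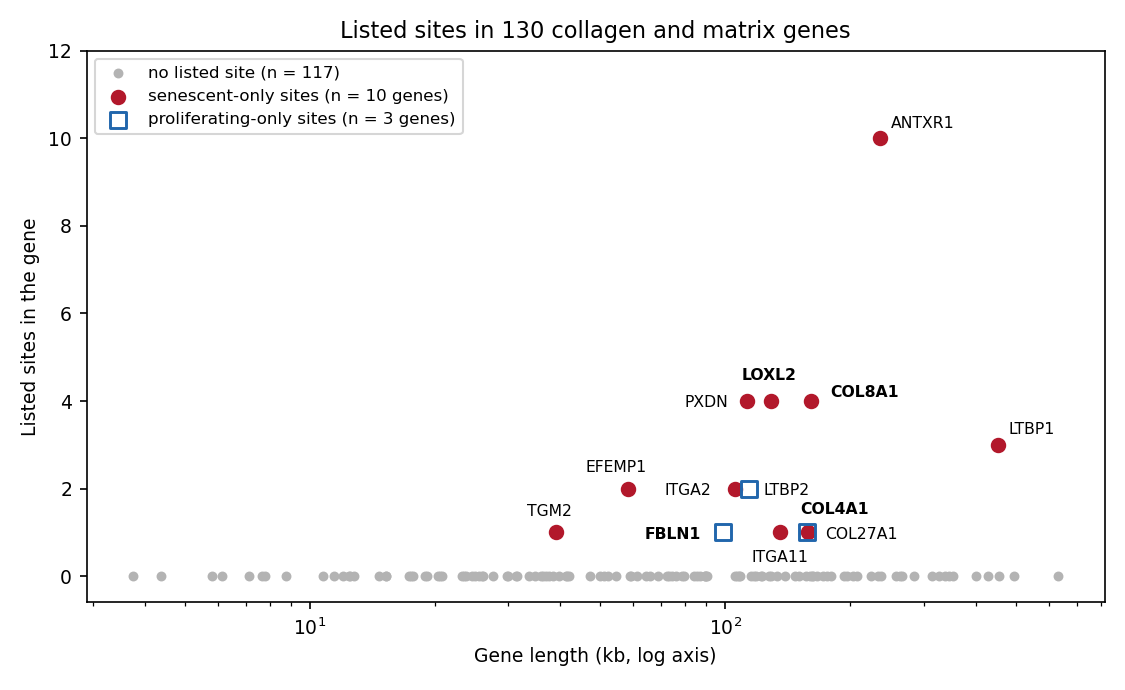
Number of listed sites in each of 130 matrix genes against gene length (kb, log axis); red discs are senescent-only, open blue squares proliferating-only and grey points the 117 genes with no site, with the 4 members in bold. COL4A1 and COL27A1 are drawn on top of each other because their lengths are close; COL8A1, LOXL2 and PXDN hold 4 senescent-only sites each and ANTXR1 10.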

How the data were processed

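Of the 8 samples, grouped by assay and state from their labels, values were available as 2 distinct site lists, each also deposited as an identical copy under replicate 1 of its PRO-cap group. Each site carries a fold deposited by the authors, a linear ratio of the states whose direction follows the list name. The site caller, its cutoffs, the libraries used and any pooling are not stated. The submitters' processing notes name HOMER, bedtools 2.27.1-65, cutadapt 2.10, SAMtools 1.1 and BWA 0.7.10 without their roles, and hg19 among the builds.

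All sites were 150 bases wide with + in the strand column, so the direction of transcription was not analysed. No site passed a chromosome end of the reference (0 of 1249). Reads were decoded with a pseudocount of 1 and a tolerance of 1e-06 of a read. A read here is the smallest unit of the folds and may be a scaled or merged count. Total depth is unknown, and if both states were scaled to 1 total, the steps put senescent at 1.20 times the proliferating depth. Decoding, motif search and gene assignment were tested on simulated data.

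Sites were assigned by their middle to GENCODE 44 genes or 1 kb upstream. Named are every member site, every gene of the lists with a site, and the 3 genes most alike to each member. The members and lists were chosen with earlier results of these data known. All 142 list genes matched the annotation. Python 3.11.15, pandas 2.3.3, scipy 1.17.1 and pysam 0.24.0 were used. No test across genes was made. Alternatives varied the span, upstream window, assignment, joining, reads, motif and window. PRO-seq was not analysed here.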

Additional observations from a re-analysis of the deposited data

How the results depend on the processing

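Under the alternatives 34 values stayed close to the reported one and 13 moved. Close meant within 1.5 times for counts and within the Poisson interval for reads. For a median position it meant a change below the standard deviation of the sites of the gene. With 1 site any change of position counted as moved. Some values could not move, such as the read sum of a gene with 1 site, so the tally does not measure stability. Counting only sites without any read of the other state left 1 site in COL8A1, 1 in LOXL2 and 0 in FBLN1, and 1 of the 3 matrix genes with proliferating-only sites. Summing over sites in place of the site of highest fold gave 259 reads for COL8A1 and 571 for LOXL2. The canonical transcript span put the median LOXL2 site at 79.6% and the FBLN1 site at 32.8%. Taking for each site the transcript in which it lies farthest along, an alternative added after the data were examined, gave medians of 94.5% (COL8A1), 98.6% (COL4A1), 97.3% (LOXL2) and 78.6% (FBLN1). In 150 bases 2 of 10 members (20%) held an AP-1 match in place of 4, where 14.1% of senescent-only and 6.5% of proliferating-only sites did. Upstream windows of 0 and 5 kb, any overlap and joining within 500 bases kept every site count within 1.5 times. No replicate could be left out. No paired analysis was possible because libraries have no values of their own in the lists. COL8A1 site 1, COL4A1 and FBLN1 rest on 9 or 10 reads.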
